A study of Marchantia polymorpha with 12 samples.

Results

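MpNCED (Mp2g07800) and MpCYP707A (Mp2g25940) of the liverwort Marchantia polymorpha were described here, the pair of genes for synthesis and breakdown of the plant hormone abscisic acid. They were taken by gene identifier, for their annotated roles, and are 2 of the 18336 genes in the deposited table. Both identifiers place the genes on chromosome 2, and each gene is represented there by 1 transcript model. The genome build of the table is not given in the sources used here, so no coordinates are printed.

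Transcripts were counted in 12 libraries, 3 from each of 4 groups, made from 3-week-old thalli with their rhizoids that had grown from gemmae on cellophane over agar medium. Mpfer-1 is a male line labelled as a knockdown of MpFER, a receptor-like kinase of the cell surface, and Tak-1 is the male wild-type strain. Mpmri-1 is a female line labelled as a knockdown of MpMRI, a cytoplasmic receptor-like kinase, and Tak-2 is the female wild-type strain. The rhizoids of both mutant lines stay short and burst, and the series asks which pathways depend on MpFER and MpMRI, with a link between the cell wall and abscisic acid named in its title. Each mutant group is a single line, so sex, line and the gene targeted cannot be told apart when the male comparison is set beside the female one. The labels do not say whether replicates came from separate cultures, so p-values measure only the spread between these libraries.

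Abscisic acid is made from carotenoids. NCED (9-cis-epoxycarotenoid dioxygenase) cuts an oxygenated carotenoid into the first precursor that is committed to the hormone, and this cut is held to be the rate-limiting step in flowering plants. CYP707A is a cytochrome P450 that hydroxylates abscisic acid and so starts its breakdown. In bryophytes the hormone is known for its part in tolerance of drying, and in Marchantia also for the dormancy of gemmae. Transcript levels do not measure the hormone, which was not measured in the data used here.

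Library totals ran from 25548038 to 35313222 counts. The targeted genes check the labels. MpFER (Mp4g15890) had 89.0 to 102 CPM (counts scaled to a common library total with TMM factors) in Mpfer-1 and 154 to 169 CPM in Tak-1. MpMRI (Mp7g17560) had 649 to 764 CPM in the Mpmri-1-labelled libraries and 264 to 269 CPM in Tak-2, so it went against the label of a knockdown. Those libraries are therefore named by their label throughout, and directions drawn from them rest on the label. Of 12 markers for cell types, MpBHLH20 (also MpBNB), which starts the germ line, and MpPRM, a sperm protamine, were at or near 0 (at most 0.0925 CPM in any library). The other germ line marker, MpDUO1, was detected in every library at 0.472 to 1.15 CPM, and MpBHLH14 (also MpRSL1), which starts rhizoids, had 8.70 to 20.3 CPM.

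The synthesis gene rose in both mutant comparisons. MpNCED had 4.36, 4.38 and 6.79 CPM (replicates A, B, C) in Mpfer-1, against 0.632, 0.786 and 0.771 CPM in Tak-1. These levels rest on 142 to 279 counts per library in Mpfer-1 and on 19 to 27 counts in Tak-1. Every Mpfer-1 library lay above every Tak-1 library, and replicate C of Mpfer-1 was the highest of all 12. MpNCED averaged 5.18 ± 1.40 CPM in Mpfer-1 and 0.73 ± 0.0849 CPM in Tak-1 (SD, n = 3 each), a 7.06-fold rise (log2 fold change 2.82, SE 0.35, edgeR quasi-likelihood test, adjusted p 2.96e-05 by Benjamini-Hochberg). In that comparison 56.2% of the 14044 genes tested were called at an adjusted p under 0.05, so a call alone does not set the gene apart. The share of all genes whose groups did not overlap was not counted, so neither does the separation of its libraries. By size, 596 of the genes tested had a more positive log2 fold change.

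MpNCED had 2.86, 2.97 and 1.05 CPM (replicates A, B, C) in the Mpmri-1-labelled libraries, against 0.50, 0.551 and 0.51 CPM in Tak-2. The counts were 61, 88 and 32 in the Mpmri-1-labelled libraries and 12, 15 and 15 in Tak-2. The groups did not overlap, but replicate C of the line lay far below the other two. Its exact Poisson interval of 0.721 to 1.49 CPM (95%, counting error only) ended below those of replicates A (2.19 to 3.67) and B (2.38 to 3.65). The means were 2.29 ± 1.07 CPM in the Mpmri-1-labelled libraries and 0.52 ± 0.0268 CPM in Tak-2 (SD, n = 3 each), a 4.34-fold rise (log2 fold change 2.12, SE 0.38, edgeR adjusted p 0.000461). Of all genes tested, 64.1% were called in this comparison, and 1176 had a more positive log2 fold change than MpNCED. Without replicate C of the Mpmri-1-labelled libraries the rise was 2.48 on the log2 scale (SE 0.26, edgeR adjusted p 7.34e-06).

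The size of the MpNCED rise was not shown to differ between the lines. The effect in the female comparison minus that in the male comparison was -0.70 on the log2 scale (SE 0.53, edgeR adjusted p 0.313), with an approximate 95% interval of -1.92 to 0.52. The wild types were not shown to differ either (Tak-2 against Tak-1, log2 fold change -0.49, SE 0.42, edgeR adjusted p 0.399, interval -1.45 to 0.47). Ordered by level, Mpfer-1 came first, then the Mpmri-1-labelled libraries, Tak-1 and Tak-2, with no overlap of CPM between neighbours. Counting intervals of the Tak-1 and Tak-2 libraries overlapped, since a library there held 12 to 27 counts. The close agreement of the 3 Tak-2 libraries (coefficient of variation 5.15%) was tighter than counting error alone would give at that depth (26.7%) and is no measure of the precision.

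**Figure D1:**
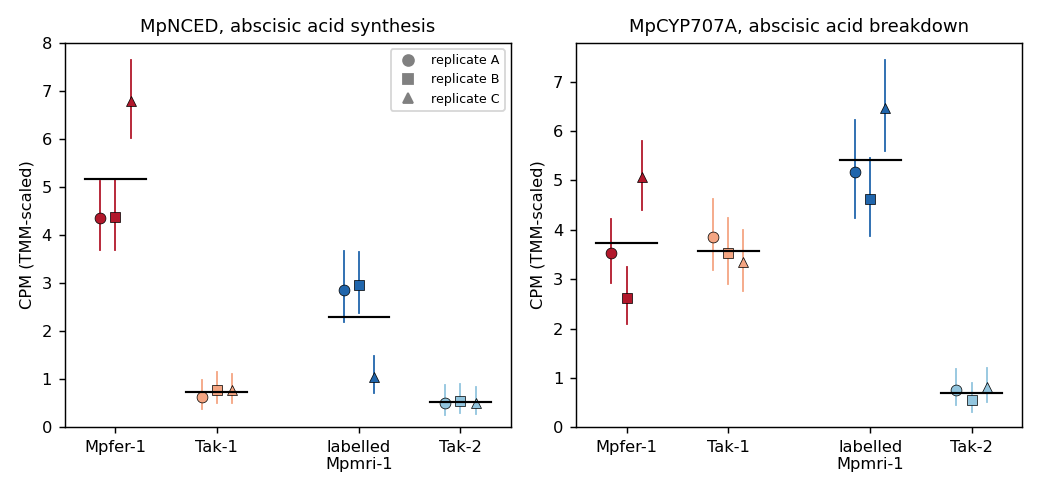
Levels of MpNCED (left) and MpCYP707A (right) in each library, in CPM on a linear axis from 0. Points are libraries, vertical lines their exact 95% Poisson intervals (counting error only) and horizontal bars group means of 3 libraries. MpNCED lies higher in both mutant lines than in the wild type of the same sex, while MpCYP707A is low in the Tak-2 libraries (0.551 to 0.816 CPM) and between 2.62 and 6.46 CPM in the other groups.

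The breakdown gene behaved differently. MpCYP707A had 3.52, 2.62 and 5.06 CPM (replicates A, B, C) in Mpfer-1, against 3.86, 3.52 and 3.34 CPM in Tak-1. The groups overlapped fully, with the Tak-1 libraries inside the range of Mpfer-1. The means were 3.74 ± 1.24 CPM in Mpfer-1 and 3.58 ± 0.264 CPM in Tak-1 (SD, n = 3 each), and the gene was not called (log2 fold change 0.070, SE 0.23, edgeR adjusted p 0.817). The approximate 95% interval ran from -0.46 to 0.60, so a change of the size seen for MpNCED lay outside it. Replicate C of Mpfer-1 was the highest for both genes, and without it the log2 fold change of MpCYP707A was -0.20 (edgeR adjusted p 0.465).

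In the female comparison MpCYP707A rose. It had 5.16, 4.62 and 6.46 CPM (replicates A, B, C) in the Mpmri-1-labelled libraries, against 0.75, 0.551 and 0.816 CPM in Tak-2. The counts were 110, 137 and 196 in the Mpmri-1-labelled libraries and 18, 15 and 24 in Tak-2. The groups did not overlap, and replicate C, the lowest of its group for MpNCED, was the highest for MpCYP707A. The means were 5.41 ± 0.947 CPM in the Mpmri-1-labelled libraries and 0.706 ± 0.138 CPM in Tak-2 (SD, n = 3 each), a 7.63-fold rise (log2 fold change 2.93, SE 0.27, edgeR adjusted p 2.19e-06). Of all genes tested, 64.1% were called in this comparison, and 843 had a more positive log2 fold change.

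The effect on MpCYP707A differed between the lines. The effect in the female comparison exceeded that in the male comparison by 2.86 on the log2 scale (SE 0.36, edgeR adjusted p 0.000147), where 37.3% of all genes tested were called and 317 had a more positive difference. The baselines of the wild types also differed. MpCYP707A in Tak-2 was 5.04-fold below its level in Tak-1 (log2 fold change -2.33, SE 0.27, edgeR adjusted p 6.8e-05), with 35.1% of all genes called in that comparison and 314 genes more negative. The libraries labelled Mpmri-1, at 4.62 to 6.46 CPM, lay above the Tak-1 libraries (3.34 to 3.86 CPM) and overlapped those of Mpfer-1 (2.62 to 5.06 CPM), so Tak-2 was the group that stood apart. The difference between the effects thus contains the low level of Tak-2, and a difference in background between the Tak-2 strain and the line labelled Mpmri-1 cannot be told apart from the effect of the line.

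The 3 neighbouring genes on each side were read out, as ordered in the reference annotation, to see whether the stretch of chromosome moved with the gene. Of the 6 neighbours of MpCYP707A, 5 were tested. In Tak-2 against Tak-1 their log2 fold changes lay between -0.14 and 0.57, and the 1 called was higher (35.1% of all genes were called, 17.1% higher). In Mpfer-1 against Tak-1 they lay between -0.281 and 0.715, and the 2 called were higher (56.2% of all genes were called, 29.1% higher). In the Mpmri-1-labelled libraries against Tak-2 they lay between -1.004 and -0.023, and the 4 called were lower (64.1% of all genes were called, 31.1% lower), among them Mp2g25930 (11.0 against 15.4 CPM) and Mp2g25950 (12.7 against 18.3 CPM) on either side of it. Of the 6 neighbours of MpNCED, 4 were tested, and the 2 called in each mutant comparison were lower (edgeR adjusted p under 0.05), with log2 fold changes between -2.30 and 0.038 in Mpfer-1 against Tak-1 and between -1.26 and -0.065 in the Mpmri-1-labelled libraries against Tak-2. That number called is near the share over all genes, of which 56.2% and 64.1% were called in those comparisons (27.1% and 31.1% lower). The most negative change in each was that of Mp2g07810, which was near the floor. It had 0.0678 CPM in Mpfer-1 against 0.332 CPM in Tak-1, and 0.265 CPM in the Mpmri-1-labelled libraries against 0.64 CPM in Tak-2. The other neighbour called, Mp2g07770, had log2 fold changes of -0.492 and -0.368. Neither member overlapped another gene in that annotation.

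Of the 4 cell type markers called lower in Tak-2 against Tak-1, as MpCYP707A was, MpGCAM1 and MpERF20 had the largest changes. MpGCAM1, a MYB factor needed to form gemma cups, had 3.48 to 5.33 CPM in Mpfer-1 against 2.14 to 2.89 CPM in Tak-1, and 2.86 to 4.22 CPM in the Mpmri-1-labelled libraries against 0.34 to 0.417 CPM in Tak-2. MpERF20 (also MpLAXR), a factor of cellular reprogramming that stood among the rhizoid markers in the list, had 2.34 to 2.86 CPM in Mpfer-1 against 2.63 to 3.71 CPM in Tak-1, and 4.75 to 7.13 CPM in the Mpmri-1-labelled libraries against 0.661 to 0.958 CPM in Tak-2. Their log2 fold changes in the Mpmri-1-labelled libraries against Tak-2 were 3.09 (SE 0.27) and 2.95 (SE 0.23), beside 2.93 for MpCYP707A. In Tak-2 against Tak-1 they were -2.70 and -1.95, beside -2.33 (edgeR adjusted p at most 7.6e-05 for each of these). The male comparison was different, since MpGCAM1 was called higher there (log2 fold change 0.75, edgeR adjusted p 0.00948) and MpCYP707A was not called, nor was MpERF20 (-0.26, edgeR adjusted p 0.291). The remaining markers called lower in Tak-2 against Tak-1 were MpBHLH14 and MpCLE2 (log2 fold changes -1.03 and -0.575, edgeR adjusted p 0.000105 and 0.00731). MpBHLH14 did not share the female pattern, since it was not called in the Mpmri-1-labelled libraries against Tak-2 (0.231, edgeR adjusted p 0.133). MpCLE2 was called higher there (0.881). Of the 10 markers tested, 1 was called higher and 4 lower in Tak-2 against Tak-1, where 17.1% of all genes were called higher and 18.0% lower.

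**Figure D2:**
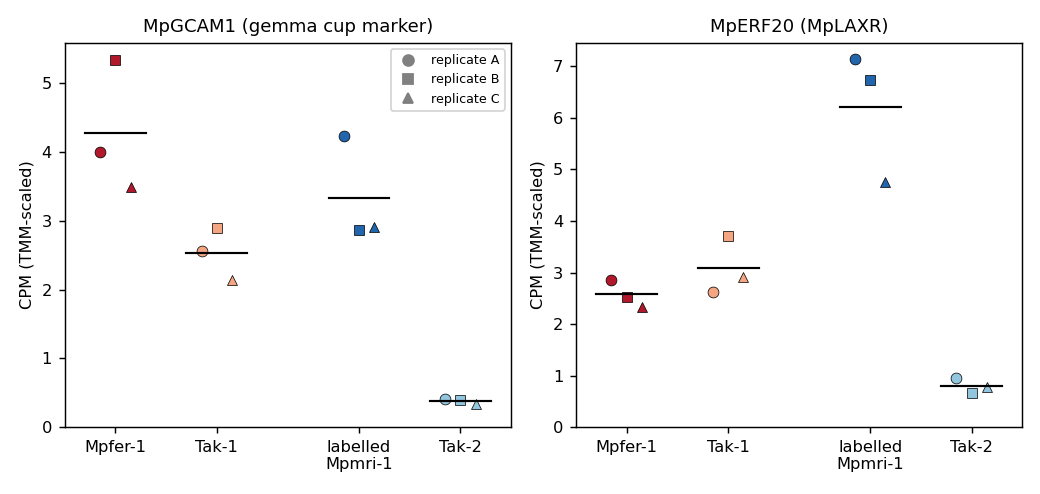
Levels of MpGCAM1 (left) and MpERF20 (right) in each library, in CPM on a linear axis from 0, with horizontal bars at group means of 3 libraries. The Tak-2 libraries, at 0.34 to 0.417 CPM for MpGCAM1 and 0.661 to 0.958 CPM for MpERF20, lie below all others.

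Markers called higher in both mutant comparisons, as MpNCED was, were the oil body markers MpC1HDZ and MpR2R3-MYB2, the gemma cup marker MpGCAM1 and the meristem marker MpCLE2. MpCLE2 had log2 fold changes of 0.83 in Mpfer-1 against Tak-1 and 0.88 in the Mpmri-1-labelled libraries against Tak-2 (edgeR adjusted p 0.000249 and 0.000168). The other meristem markers did not share this. MpPIN1 was called higher in the male comparison only, with log2 fold changes of 0.593 and -0.014 (edgeR adjusted p 0.000184 and 0.907). MpYUC2 was called in neither, with -0.205 and -0.166 (edgeR adjusted p 0.163 and 0.242). The oil body marker MpERF13 was called in neither, with log2 fold changes of -0.39 and 0.32 (edgeR adjusted p 0.0603 and 0.112). Summed over the 3 oil body markers, the level was 85.3 to 111 CPM in Mpfer-1 against 46.2 to 61.2 CPM in Tak-1, and 87.1 to 89.9 CPM in the Mpmri-1-labelled libraries against 47.3 to 59.4 CPM in Tak-2. Most of that sum was MpC1HDZ, at 70.4 to 88.8 CPM in Mpfer-1 against 31.8 to 43.5 CPM in Tak-1, and 63.2 to 65.1 CPM in the Mpmri-1-labelled libraries against 32.1 to 41.9 CPM in Tak-2. Over the whole marker list, 5 of 10 tested were called in each mutant comparison, each of them higher, where 56.2% of all genes were called in the male comparison (29.1% higher) and 64.1% in the female one (33.0% higher), so the number called does not set the markers apart. The summed level of all 12 was 371 to 402 CPM in Mpfer-1 against 248 to 277 CPM in Tak-1, and 305 to 358 CPM in the Mpmri-1-labelled libraries against 267 to 299 CPM in Tak-2. Most of that sum was MpPIN1. It had 221 to 231 CPM in Mpfer-1 against 141 to 158 CPM in Tak-1. In the Mpmri-1-labelled libraries it had 171 to 220 CPM, against 183 to 205 CPM in Tak-2. The part of these cell types in the levels of MpNCED and MpCYP707A was not tested. In bulk samples, more cells of a type and more RNA per cell cannot be told apart.

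The ratio of synthesis to breakdown transcripts was taken within each library, where scaling between libraries cancels. It is a ratio of counts, not corrected for transcript length, so it is compared between libraries only and its value does not say which transcript was more abundant per molecule. In Mpfer-1 the MpNCED to MpCYP707A ratio was 1.24, 1.67 and 1.34 in replicates A, B and C, against 0.164, 0.223 and 0.231 in Tak-1. The groups did not overlap, and neither did any pair of their 95% Clopper-Pearson counting intervals (the lowest in Mpfer-1 began at 0.969, and the highest in Tak-1 ended at 0.353). The geometric mean was 1.40 in Mpfer-1 and 0.204 in Tak-1, a difference of 2.79 on the log2 scale, or 6.90-fold, where the SD of the log2 ratio between replicates was 0.22 in Mpfer-1 and 0.27 in Tak-1 (n = 3 each). This is close to the 7.06-fold rise of MpNCED alone, since the estimated change of MpCYP707A was small (log2 fold change 0.070).

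In the Mpmri-1-labelled libraries the ratio was 0.555, 0.642 and 0.163 in replicates A, B and C, against 0.667, 1.0 and 0.625 in Tak-2. Replicates A and C lay below every Tak-2 library, and replicate B (0.642) lay inside the Tak-2 range. The geometric mean was 0.387 in the Mpmri-1-labelled libraries and 0.747 in Tak-2, a difference of -0.95 on the log2 scale. The SD of the log2 ratio in the Mpmri-1-labelled libraries was 1.09, which is larger than that difference, and in Tak-2 it was 0.37 (n = 3 each). Without replicate C of the Mpmri-1-labelled libraries the difference was -0.32, so the size of the fall in the ratio rests on that library. Counting intervals were wide in Tak-2, from 0.456 to 2.20 in replicate B, where both genes had 15 counts.

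The wild types differed in the ratio as well. It was 3.67-fold higher in Tak-2 (0.625 to 1.0) than in Tak-1 (0.164 to 0.231), with no overlap, because MpCYP707A was low in Tak-2. The ratio in replicate C of the Mpmri-1-labelled libraries (0.163) was as low as in Tak-1. Ordered by geometric mean, Mpfer-1 (1.40) came first, then Tak-2 (0.747), the Mpmri-1-labelled libraries (0.387) and Tak-1 (0.204), and only the Mpmri-1-labelled libraries overlapped with their neighbours in that order, Tak-2 and Tak-1. No p is given for the ratio, which is a score over both genes.

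**Figure D3:**
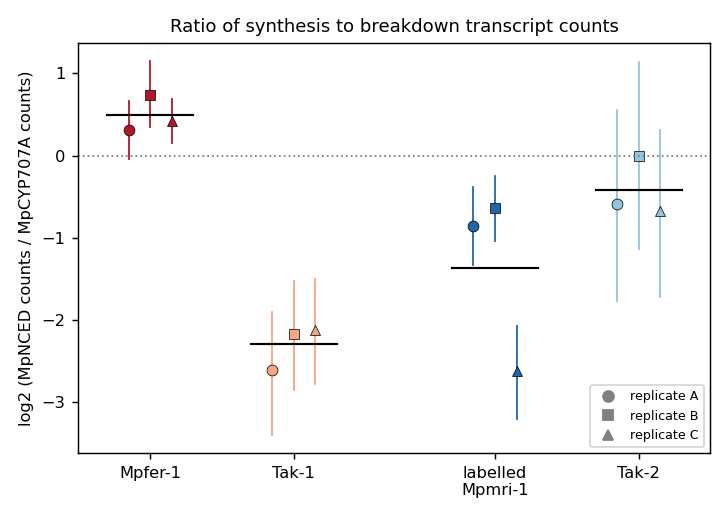
Log2 ratio of MpNCED counts to MpCYP707A counts in each library. Vertical lines are 95% Clopper-Pearson intervals (counting error only), horizontal bars group means of 3 libraries, and the dotted line marks equal counts. The Mpfer-1 libraries lie above all others and the Tak-1 libraries near the bottom, while replicate C of the Mpmri-1-labelled libraries lies apart from its group.

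Other enzymes of the CYP707 family, taken by their symbols, did not share the pattern of MpCYP707A. MpCYP707-like (Mp1g10110) was at 26.1 ± 2.36 CPM in Mpfer-1 and 14.8 ± 1.74 CPM in Tak-1, and at 27.8 ± 1.34 CPM in the Mpmri-1-labelled libraries and 18.7 ± 1.83 CPM in Tak-2 (SD, n = 3 each). It rose in both comparisons, by 0.82 and 0.57 on the log2 scale (edgeR adjusted p 4.69e-05 and 0.000566). MpCYP707D1 (Mp7g11110) had 599, 630 and 716 counts in Mpfer-1 and 367, 357 and 435 counts in Tak-1, and rose by 0.59 on the log2 scale (edgeR adjusted p 0.000121). Its change in the female comparison was -0.041 on the log2 scale (SE 0.088, edgeR adjusted p 0.703). In Tak-2 against Tak-1 both were called higher, by 0.34 and 0.40 on the log2 scale, where MpCYP707A was lower. Whether these 2 genes act on abscisic acid is not given in the sources used here.

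Cytochromes P450 are a large superfamily of oxidising enzymes, and 102 genes with a symbol of the family were tested. In Mpfer-1 against Tak-1, 47 were called higher and 25 lower (46.1% and 24.5%, beside 29.1% and 27.1% over all genes). Called in either direction were 70.6%, beside 56.2% over all genes. Scaling to library totals without TMM tilts the calls over all genes, with 67.2% of them higher in place of 51.8% in the male comparison and 42.2% in place of 51.5% in the female one. Under that scaling 52 family members were called higher and 18 lower in the male comparison, and 57 and 15 in the female one. With TMM, 62 were called higher and 15 lower in the Mpmri-1-labelled libraries against Tak-2. The median log2 fold change there was 0.79, against 0.001 over all genes tested (33.0% of all genes called higher and 31.1% lower). There 15 family members had a more positive log2 fold change than MpCYP707A, against 60 in Mpfer-1 against Tak-1. In Tak-2 against Tak-1, 6 family members had a more negative change than MpCYP707A, and 19 were called higher and 40 lower (17.1% and 18.0% over all genes). For the difference between the effects, 43 were called higher and 8 lower (21.0% and 16.3% over all genes).

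Of 19 genes on a list of abscisic acid synthesis, breakdown, transport and signalling, 12 passed the filter on low counts and were tested. In Mpfer-1 against Tak-1, 5 were called higher and 3 lower, with a median log2 fold change of 0.11 (0.022 over all genes tested). In the Mpmri-1-labelled libraries against Tak-2, 7 were called higher and 3 lower, with a median of 0.33. For the difference between the effects, 3 were called higher and 2 lower, and in Tak-2 against Tak-1, 4 higher and 1 lower, 41.7% called in each, near the 37.3% and 35.1% over all genes. Shares called of 66.7% and 83.3% in the mutant comparisons stand beside 56.2% and 64.1% over all genes. MpNCED and MpCYP707A had the largest log2 fold changes of the 12 in the Mpmri-1-labelled libraries, and MpNCED the largest in Mpfer-1.

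Upstream of NCED in the pathway, MpABA1, named after zeaxanthin epoxidase of Arabidopsis, fell in both comparisons. It had 169 ± 18.5 CPM in Mpfer-1 and 263 ± 9.44 CPM in Tak-1, and 245 ± 20.8 CPM in the Mpmri-1-labelled libraries and 364 ± 12.8 CPM in Tak-2 (SD, n = 3 each), with log2 fold changes of -0.64 and -0.57 (edgeR adjusted p 9.31e-05 and 0.000186). MpABA4, whose Arabidopsis namesake is needed to make neoxanthin, rose in Mpfer-1 (51.7 ± 9.77 CPM, against 33.6 ± 2.57 CPM in Tak-1, edgeR adjusted p 0.0019). In the Mpmri-1-labelled libraries against Tak-2 its log2 fold change was -0.19 (edgeR adjusted p 0.244), and the difference between the effects was called (-0.81, edgeR adjusted p 0.00705). The 3 synthesis genes therefore did not move together.

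MpABCG25, named after an abscisic acid exporter of Arabidopsis, rose in the Mpmri-1-labelled libraries (52.2 ± 1.03 CPM, against 41.3 ± 3.08 CPM in Tak-2, SD, n = 3 each). Its log2 fold changes were 0.34 there (edgeR adjusted p 0.00135) and 0.15 in Mpfer-1 against Tak-1 (edgeR adjusted p 0.0845). The receptor gene MpPYL1 also rose in the Mpmri-1-labelled libraries (187 ± 12.2 CPM, against 150 ± 7.19 CPM in Tak-2, edgeR adjusted p 0.00201). In Mpfer-1 it was at 136 ± 5.45 CPM, against 148 ± 5.90 CPM in Tak-1 (edgeR adjusted p 0.192). MpSNRK2A, for a kinase of the class released by receptor binding, rose by 0.35 and 0.36 on the log2 scale in the male and the female comparison, and MpSNRK2B fell by 0.30 in Mpfer-1 and was not called in the Mpmri-1-labelled libraries (log2 fold change 0.052, edgeR adjusted p 0.467).

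The transcription factor genes moved in both comparisons. MpABI3A rose by 1.37 and 1.02 on the log2 scale, MpABI5B rose by 1.66 and 0.69, and MpABI5A had log2 fold changes of -0.92 and -0.98, in the male and the female comparison in that order (edgeR adjusted p at most 0.00154). MpABI5B stood at 81.6 ± 13.9 CPM in Mpfer-1 and 25.8 ± 0.884 CPM in Tak-1 (SD, n = 3 each), and its effect differed between the lines (-0.97, edgeR adjusted p 0.00429). MpAHG2 entered the list by its symbol, though its Arabidopsis namesake is a poly(A) ribonuclease and no phosphatase. It fell in the Mpmri-1-labelled libraries (34.4 ± 7.41 CPM, against 48.6 ± 2.14 CPM in Tak-2, edgeR adjusted p 0.00438), with an edgeR adjusted p of 0.435 in Mpfer-1.

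The other 7 genes of the list were too low to be tested. They were the receptor genes MpPYL2, MpPYL4 and MpPYL5, the group A phosphatase genes MpPP2C_A1, MpPP2C_A2 and MpPP2C_A3, which brake the signal in flowering plants, and the channel gene MpSLAC1. Over all 12 libraries they held between 0 counts (MpPP2C_A2) and 32 counts (MpSLAC1).

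**Figure D4:**
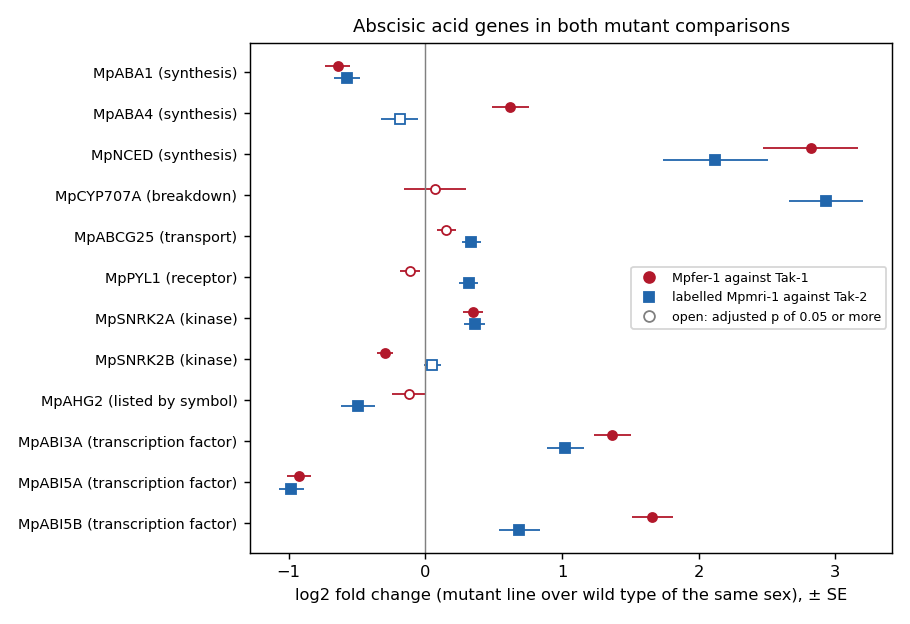
Log2 fold changes (± SE) of the 12 tested genes of the abscisic acid list in Mpfer-1 against Tak-1 (circles) and in the Mpmri-1-labelled libraries against Tak-2 (squares). Filled symbols have an edgeR adjusted p under 0.05. MpNCED lies far to the right in both, and MpCYP707A in the female comparison alone (2.93, against 0.070 in the male one).

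Late embryogenesis abundant (LEA) proteins protect cells that dry, and their genes respond to abscisic acid in many plants. Their summed level, over 69 genes with LEA in the symbol, was 9443, 8965 and 13473 CPM (replicates A, B, C) in Mpfer-1, against 1192, 1201 and 1261 CPM in Tak-1. It was 6690, 11483 and 2726 CPM in the Mpmri-1-labelled libraries, against 1607, 1493 and 1499 CPM in Tak-2. Within both mutant lines the replicate with the highest MpNCED level also had the highest LEA sum (replicate C of Mpfer-1 and replicate B of the line labelled Mpmri-1). These ranks say little. Replicates A and B of Mpfer-1 had MpNCED at 4.36 and 4.38 CPM, with LEA sums in the opposite order. The MpNCED counting intervals of replicates A and B labelled Mpmri-1 overlapped (2.19 to 3.67 and 2.38 to 3.65 CPM). Replicate C of the Mpmri-1-labelled libraries was the lowest of the 6 mutant libraries for both MpNCED and the LEA sum. It had the highest MpCYP707A level of all 12. Most libraries fall into separate clusters of mutant and wild type, with replicate C of the Mpmri-1-labelled libraries between them. No correlation is therefore given.

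Among 67 LEA genes tested in the male comparison, 58 rose and 3 fell, beside 29.1% of all genes called higher and 27.1% lower. In the female comparison 56 rose and 4 fell, beside 33.0% and 31.1% of all genes. Their median log2 fold changes were 6.996 in the male and 5.45 in the female comparison (0.022 and 0.001 over all genes tested). Genes at 0 to 3 counts in a group (10 and 5 of them) were also set to the bound that 3 counts over the group would give. The medians were then 6.16 and 5.17. In Tak-2 against Tak-1, 7 were called higher and 4 lower, and for the difference between the effects 4 higher and 6 lower. The shares called, 16.4% and 14.9%, lay below the 35.1% and 37.3% over all genes. The median log2 fold changes of the LEA genes were 0.461 and -1.059 (0.002 and 0.013 over all genes tested). Few calls there do not show equal levels. In Tak-2 against Tak-1 the median was 0.48 with 6 LEA genes set to the bound and 7 left out at the floor. The LEA sums of 1493 to 1607 CPM in Tak-2 and 1192 to 1261 CPM in Tak-1 differed by far less than the 5.04-fold of MpCYP707A.

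**Figure D5:**
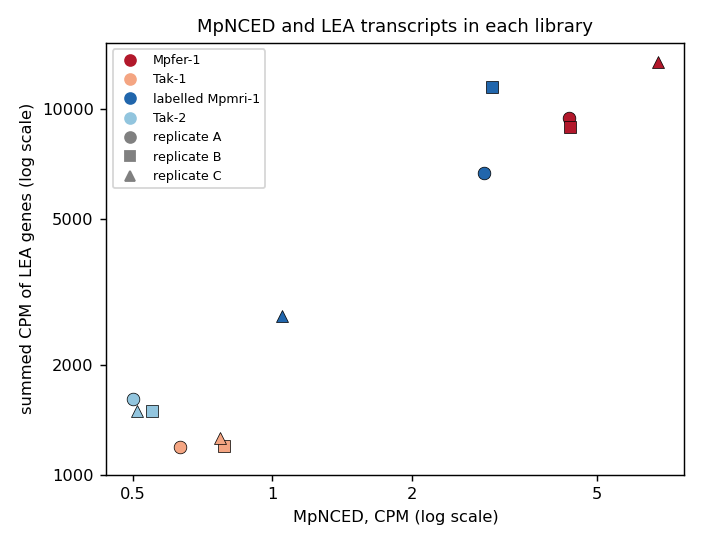
MpNCED level (x axis, CPM) and summed level of 69 LEA genes (y axis, CPM) in each library, both on log scales. The wild types lie at the lower left, the mutant libraries at the upper right, and replicate C of the Mpmri-1-labelled libraries (1.05 and 2726 CPM) lies between them.

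The genes whose pattern was most like each member were taken by the Pearson correlation of log2 CPM over the 12 libraries, among 12523 other genes with a mean of at least 1 CPM. The 12 points share 4 groups, so the values describe likeness of pattern only. The 5 most like MpNCED were Mp7g05390, Mp2g01350, Mp5g16170, Mp5g06380 and Mp6g13370 (r 0.982 to 0.988), none of which has a symbol in the reference table. Among them Mp2g01350 averaged 60.5 CPM in Mpfer-1 and 2.63 CPM in Tak-1, and 18.8 CPM in the Mpmri-1-labelled libraries and 1.67 CPM in Tak-2. Mp7g05390 spanned less, with 22.3 CPM in Mpfer-1 and 11.4 CPM in Tak-1, and 16.8 CPM in the Mpmri-1-labelled libraries and 9.15 CPM in Tak-2.

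The 5 most like MpCYP707A were Mp5g14700, Mp2g23700, Mp3g24120, MpGH17.7 and MpCYP822B2 (r 0.972 to 0.980). Mp5g14700 averaged 44.0 CPM in Mpfer-1 and 45.5 CPM in Tak-1, and 83.3 CPM in the Mpmri-1-labelled libraries and 5.57 CPM in Tak-2. MpGH17.7, of a glycoside hydrolase family that holds callose-cutting enzymes, had 5.53 CPM in the Mpmri-1-labelled libraries and 0.607 CPM in Tak-2, and MpCYP822B2, another cytochrome P450, 96.1 and 21.6 CPM. All 5 were lowest in Tak-2, as a choice by likeness to MpCYP707A favours. MpNCED and MpCYP707A themselves had r = 0.582 over the 12 libraries. The genes named here were chosen for the highest r, so that value is not compared with theirs.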

How the data were processed

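RNA from thalli with rhizoids was sequenced in 12 libraries, 3 in each of 4 groups that follow the labels' titles. Per the labels' protocols, a stranded mRNA kit was used and spike-in RNA was added. The table that the authors deposited holds estimated counts of 23399 transcript models, with no scaling between libraries. FastQC, fastp and DESeq2 are named in the submitters' processing notes, with no role given. Not given in the sources used here are the quantifier, genome build, annotation and use of strand in counting.

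The estimated counts were summed per gene (18336 genes) and rounded, which moved a value by at most 0.5. Symbols came from a RefSeq table of the assembly MpTak2_v7.1, joined by locus number. The number of isoforms was equal in 90.2% of joined genes, against 76.5% when shifted by 1 gene. Symbols were found for 3095 genes.

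Tests used edgeR 4.0.16 under R 4.3.3 (quasi-likelihood F test, TMM factors 0.798 to 1.19, default low-count filter, 14044 genes, 1 mean per group over all 12 libraries), with Benjamini-Hochberg adjustment over all 14044. The SE is the log2 fold change over the root of F, and approximate intervals use the 8 residual degrees of freedom. The test was tried on simulated counts with known changes. Poisson and Clopper-Pearson intervals (scipy 1.17.1, 95%) cover counting error only. The members and gene lists were chosen with earlier results of these data known. Lists were built by matching symbols, ignoring case and punctuation. Named are the members, the targeted genes, the tested genes of the abscisic acid list, and for each member the 5 genes most like it. The CYP707 relatives, markers and neighbours were taken by symbol or position. Replicates differed by more than sampling noise (chi-square per degree of freedom 4.94 to 112), so none was treated as a duplicate. Alternatives covered scaling, filtering, DESeq2 1.42.0, limma 3.58.1 voom, the libraries in the fit, a replicate block and each library left out. Sequences of the members are not shown.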

Additional observations from a re-analysis of the deposited data

Results flagged for a closer look

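The effect on MpCYP707A differed between the lines. The effect in the libraries labelled Mpmri-1 against Tak-2 exceeded that in Mpfer-1 against Tak-1 by 2.86 on the log2 scale (SE 0.36, edgeR adjusted p 0.000147). For this difference 37.3% of all genes tested were called. All 3 libraries labelled Mpmri-1 lay above every Tak-2 library, in a comparison where 64.1% of all genes tested were called. Mpfer-1 libraries lay below, within and above the range of the Tak-1 ones. The level in Tak-2 (0.551 to 0.816 CPM) was below those of the other 3 groups.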

How the results depend on the processing

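Of 150 values of MpNCED and MpCYP707A under alternative settings, 149 kept their direction and their side of the threshold. The exception was MpCYP707A in Mpfer-1 against Tak-1, which was not called: leaving out each library in turn gave -0.201 to 0.291 on the log2 scale, with the negative value without Mpfer-1 replicate C. In many of the 150 the library left out was in neither group compared, so the estimate could hardly move. Values that were not called and stayed so also count among the 149. For the called effects, leaving out libraries gave 2.59 to 2.95 (MpNCED, Mpfer-1 against Tak-1, edgeR adjusted p at most 0.000324), 1.86 to 2.48 (MpNCED, Mpmri-1-labelled libraries against Tak-2, at most 0.00277) and 2.78 to 3.06 (MpCYP707A there, at most 2.85e-05). The ratio of the genes' counts in the Mpmri-1-labelled libraries against Tak-2 ranged from -1.312 to -0.324, and its difference between the effects from -4.099 to -3.111, with the smaller sizes without Mpmri-1 replicate C.

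Whether replicate letters pair the libraries is not known, and the main fit did not pair them. Deviations of libraries with the same letter correlated across genes by 0.052 to 0.168 in the male and by 0.069 to 0.193 in the female comparison. Such values were not taken for libraries with different letters, so they cannot decide it. With a replicate block, MpNCED had log2 fold changes of 2.83 in the male and 2.11 in the female comparison and MpCYP707A 0.022 and 2.94, and 7659 and 8834 genes were called in place of 7893 and 9004.

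Library totals without TMM moved the median of all genes to 0.20 in the male and -0.13 in the female comparison, to -0.30 for the difference between the effects and to -0.11 for Tak-2 against Tak-1. Of the calls, 26.2% were then higher for the difference (56.4% with TMM) and 30.1% for Tak-2 against Tak-1 (48.8% with TMM). The median of the abscisic acid list became 0.288 in the male and 0.188 in the female comparison, -0.331 for the difference (1 called higher, 4 lower) and -0.008 for Tak-2 against Tak-1 (1 called higher). For the difference, 14 LEA and 17 cytochrome P450 genes were called lower, with a cytochrome P450 median of 0.18, and 7 LEA genes were called lower in Tak-2 against Tak-1. Without the filter on low counts the abscisic acid medians were 0.252 in the male and 0.022 in the female comparison and -0.209 for the difference, and the LEA median in the male comparison was 6.165. Without Mpmri-1 replicate C, a setting chosen after seeing the data, 11 LEA genes were called lower for the difference and 13 higher in Tak-2 against Tak-1. The causes were not tested, beyond the shift that each scaling makes. Depth limits MpNCED in the wild types (12 to 27 counts per library) and MpCYP707A in Tak-2 (15 to 24 counts). The search of promoter windows for motifs was not run.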
